A study of Mus musculus with 32 samples.

Results

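Immunoglobulin genes encode the heavy and light chains of antibodies. The 37 genes described here are the annotated immunoglobulin genes, pseudogenes left out, with 10 or more counts summed over all 32 libraries of a study of regenerating mouse muscle. The deposited table lists 268 such immunoglobulin genes among 54532 genes, of which 231 fell under 10 counts and 145 had no count. The 37 genes comprise 10 constant genes, 23 of the table's 218 variable genes and 4 heavy chain joining genes. They were chosen by annotation and by their summed count, so their presence is a description. The rule sits in a sparse range: 5 of the 37 genes had 10 or 11 counts, and 5 further genes (Ighv1-9, Igkv16-104, Igkv4-55, Igkv4-72 and Igkv4-80) stood just outside it with 9. Of the remaining constant genes, Ighg1 had 5 counts, Iglc4 had 1 and Ighe had 0.

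RNA was sequenced from tibialis anterior, a fast muscle of the shin, of C57BL/6J mice described as young or old, with no ages given. Young and old mice that received vehicle gave muscle without injury, or 7 or 35 days after an injury with BaCl (barium chloride, which destroys muscle fibres). Old mice that received BI01, which the series calls a senolytic, gave muscle at the same days after the same injury. Each of these 8 groups had 4 libraries with 14129350 to 30439358 counts, and a library is called here by its group and by its number in the table. The uninjured columns are named for PBS and for the set of day 35; effects of injury at day 7 and of the collection set cannot be told apart. Whether libraries of a group stem from different mice is not stated, nor whether uninjured and injured libraries with the same number share mice. The p-values measure only the spread between these libraries, which may be technical. Markers of fast muscle fibres summed to 178037 to 308007 CPM (counts scaled by library size and TMM factors to a common unit) in the libraries of uninjured and 35-day muscle, and to 11584 to 164070 CPM at day 7. Among defining B cell markers, Ms4a1, which encodes CD20, reached at most 0.501 CPM, and the signalling subunits of the B cell receptor at most 0.676 CPM (Cd79a) and 2.13 CPM (Cd79b).

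An antibody joins a pair of heavy chains to a pair of light chains. A variable segment is joined to a joining segment (and in heavy chains a diversity segment) in each developing B cell, and the rearranged unit is spliced to a constant region, mu and delta first, gamma, alpha or epsilon after class switching. Plasma cells, the secreting descendants of B cells, transcribe these genes at very high rates and add the joining chain protein (Jchain) to IgM and IgA polymers, while a clone of B cells carries the same variable segments in all its members. Heavy constant, variable and joining genes of the list lie on chromosome 12 (mm10, 113254830 to 115920712), kappa genes on chromosome 6 (67861153 to 70726966) and lambda genes on chromosome 16 (19061618 to 19200351).

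The 4 heavy joining segments are shown because nearly all of their counts came from day 7 libraries, as described below. Sequences are those of GENCODE vM39 transcripts, matched by Ensembl identifier (37 of 37 genes matched). Capitals mark the match to TGGGGNNNNGG, the codons for the tryptophan-glycine-any-glycine turn that joining segments add to a heavy chain. All 4 hold it on the gene strand and none on the other strand, which is a description, since the motif was taken from what joining segments encode. Of 446 windows of 50 bases tiled over the transcripts of the other genes, 1.35% hold it on the gene strand and 2.47% on either strand. Over whole transcripts, 5 of the other genes hold it on the gene strand.
Ighj1: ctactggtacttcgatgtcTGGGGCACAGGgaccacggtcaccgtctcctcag
Ighj2: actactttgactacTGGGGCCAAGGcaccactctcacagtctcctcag
Ighj3: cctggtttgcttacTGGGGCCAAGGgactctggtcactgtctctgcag
Ighj4: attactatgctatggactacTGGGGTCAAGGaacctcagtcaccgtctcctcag

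The 2 kappa variable genes with the most counts, Igkv3-7 and Igkv3-2, each took most of them from a different library. Their segments, 299 bases each without the leader, differ at 40 bases, set in capitals, and are 86.6% identical.
Igkv3-7: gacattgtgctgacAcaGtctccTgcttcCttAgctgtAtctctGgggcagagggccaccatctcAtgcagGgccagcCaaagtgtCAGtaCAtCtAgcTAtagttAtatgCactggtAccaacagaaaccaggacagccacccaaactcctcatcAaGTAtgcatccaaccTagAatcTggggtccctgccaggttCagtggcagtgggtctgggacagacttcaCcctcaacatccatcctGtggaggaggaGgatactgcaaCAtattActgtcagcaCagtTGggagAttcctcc
Igkv3-2: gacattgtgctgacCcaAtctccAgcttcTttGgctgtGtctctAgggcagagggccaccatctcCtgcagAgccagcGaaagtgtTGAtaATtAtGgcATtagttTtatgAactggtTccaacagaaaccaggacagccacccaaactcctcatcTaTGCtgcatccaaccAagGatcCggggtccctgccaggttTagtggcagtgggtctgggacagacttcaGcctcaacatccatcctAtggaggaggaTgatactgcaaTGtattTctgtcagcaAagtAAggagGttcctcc
Old uninjured library 9 had 250 counts of Igkv3-7 and 0 of Igkv3-2, and BI01 day 7 library 2 had 54 of Igkv3-2 and 0 of Igkv3-7. Reads that match several genes could make the counts of single genes uncertain. The sources used here give neither the counting tool nor its rule for such reads. Among the constant genes, Iglc2 and Iglc3 are 95.4% identical over the aligned bases, and Ighg2b and Ighg2c 86.8%.

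The 37 genes held 30907 counts, and the mu heavy chain gene Ighm alone held 24286 of them, with a count in all 32 libraries. Igkc, the kappa constant gene, followed with 2566 counts in 28 libraries. The other heavy constant genes were Ighg2c (gamma 2c) with 1700 counts, Igha (alpha) with 838, Ighd (delta) with 305, Ighg2b (gamma 2b) with 197 and Ighg3 (gamma 3) with 17. The lambda constant genes had 47 counts (Iglc2), 36 (Iglc3) and 32 (Iglc1), the 23 variable genes 776 counts together and the 4 joining genes 107. Per kilobase, over all libraries, the level of Ighm was 22.8 CPM, that of Igkc 7.86 CPM and that of Ighg2c 2.43 CPM. Low counts limit what follows: 1 count was worth 0.0278 to 0.0965 CPM depending on the library, and 6 of the 37 genes (Ighm, Ighg2c, Igkc, Igha, Ighd and Ighg2b) passed the filter on low counts and were tested.

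**Figure D1:**
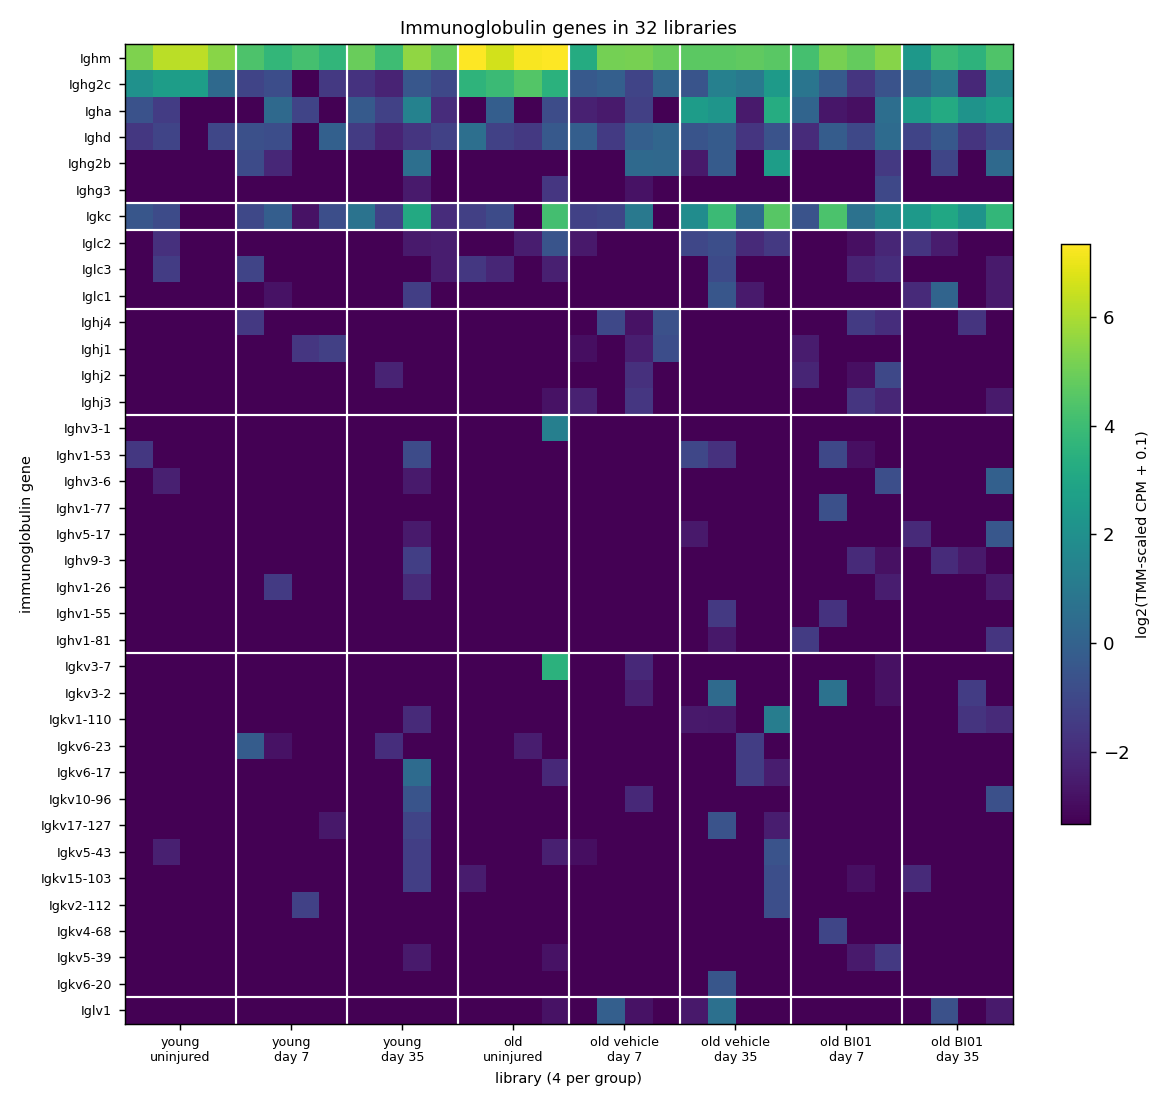
Level of each of the 37 immunoglobulin genes (rows, grouped as heavy constant, kappa constant, lambda constant, heavy joining, heavy variable, kappa variable and lambda variable) in 32 libraries (columns, 4 per group), as log2 of TMM-scaled CPM plus 0.1. Ighm is the only row with signal in all libraries, and most variable genes show signal in a few scattered libraries.

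Summed over the 37 genes, immunoglobulin transcripts were most abundant in old uninjured muscle. The summed level was 64.0 ± 22.0 CPM (SD, n = 4) in young uninjured muscle and 167 ± 37.2 CPM in old uninjured muscle. It was 18.5 ± 3.83 CPM in young muscle at day 7, 36.2 ± 20.4 CPM in young muscle at day 35, 30.8 ± 13.3 CPM in old vehicle muscle at day 7 and 48.9 ± 19.2 CPM at day 35. With BI01 it was 40.8 ± 17.3 CPM at day 7 and 30.8 ± 13.7 CPM at day 35. As a share of all raw counts this is 0.0133% in old uninjured muscle, the highest group mean, and 0.00241% in young muscle at day 7, the lowest. Without Ighm the rest summed to 24.7 ± 14.01 CPM in old uninjured muscle, 23.6 ± 20.1 CPM in old vehicle muscle at day 35 and 17.6 CPM in BI01 muscle at day 35. Without Ighg2c as well, the sums were 9.46 ± 16.2 CPM (median 1.83), 21.0 ± 18.3 CPM (median 19.0) and 16.2 ± 6.61 CPM (median 15.8) in these groups. In bulk tissue, fewer cells of a type and less RNA per cell cannot be told apart.

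Among the heavy constant genes, Ighm was highest in uninjured muscle at both ages. In libraries 1 to 4 of young uninjured muscle its level was 38.8, 74.5, 77.6 and 43.8 CPM. In libraries 6 to 9 of old uninjured muscle it was 161, 98.2, 149 and 159 CPM, so every old library stood above every young one. In young muscle it was 20.6, 13.0, 18.04 and 13.0 CPM at day 7 and 29.4, 16.2, 47.1 and 29.1 CPM at day 35. In old vehicle muscle it was 9.30, 34.4, 35.8 and 29.2 CPM at day 7 and 25.2, 24.8, 26.7 and 24.4 CPM at day 35. All 8 of these old injured libraries lay below all 4 old uninjured ones. With BI01 it was 18.1, 35.1, 28.0 and 41.7 CPM at day 7 and 4.96, 15.2, 11.7 and 20.8 CPM at day 35.

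Ighg2c, the gamma 2c gene of C57BL/6 mice, was likewise highest in uninjured muscle, at a lower level. It was 4.10, 5.96, 6.25 and 1.16 CPM in young uninjured and 12.05, 15.4, 22.4 and 11.2 CPM in old uninjured libraries. In young muscle it was 0.355, 0.466, 0 and 0.244 CPM at day 7 and 0.194, 0.106, 0.649 and 0.392 CPM at day 35. In old vehicle muscle it was 0.676, 0.839, 0.350 and 1.03 CPM at day 7 and 0.571, 2.39, 1.90 and 5.42 CPM at day 35. No injured library of either age with vehicle reached the lowest uninjured library of its age. With BI01 it was 1.65, 0.723, 0.214 and 0.562 CPM at day 7 and 1.006, 1.79, 0.134 and 2.80 CPM at day 35.

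**Figure D2:**
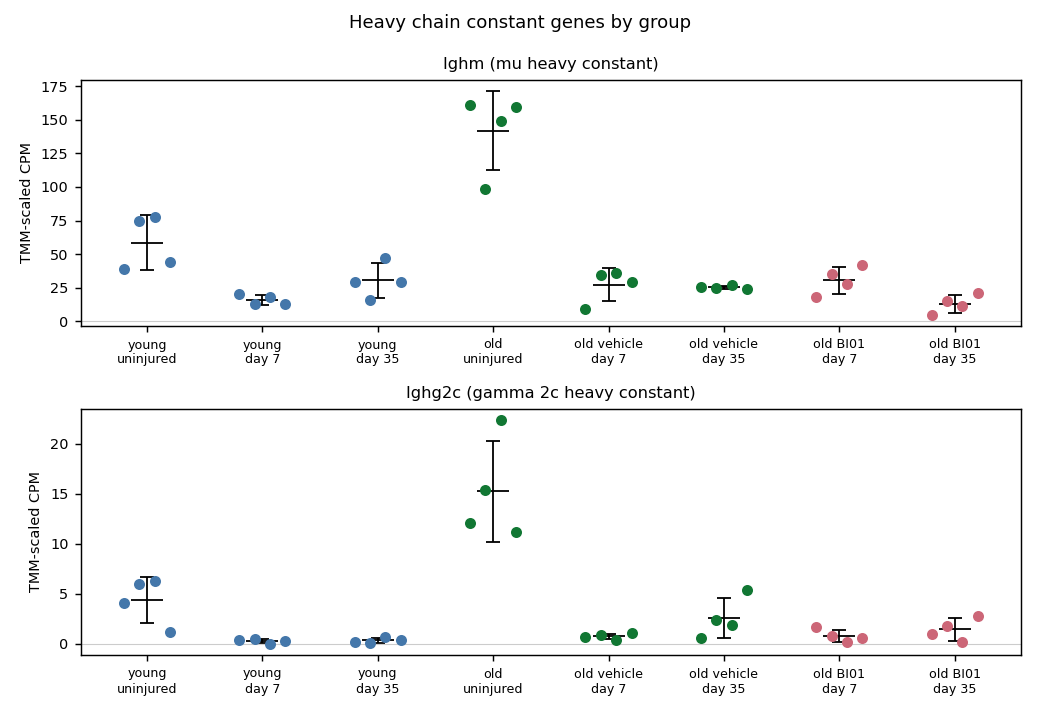
TMM-scaled CPM (linear axes) of Ighm and Ighg2c in each library, by group. Points are libraries (blue young, green old without BI01, red old with BI01), and the horizontal mark and bars are the mean ± SD of 4 libraries. The 4 old uninjured libraries lie at 98.2 to 161 CPM for Ighm, above all other libraries, and at 11.2 to 22.4 CPM for Ighg2c, also above all others.

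The comparison of old with young uninjured muscle called 1 of the 6 tested immunoglobulin genes as higher, beside 5.79% of all 17121 genes tested. Ighm was higher in old muscle by 1.27 on the log2 scale (SE 0.37, edgeR quasi-likelihood test, adjusted p = 0.0203). The call was lost without young uninjured library 1 (adjusted p = 0.0886), without old uninjured library 6 (adjusted p = 0.0518) and without a filter on low counts. The Ighm difference stayed between 1.12 and 1.44 when any of the 8 libraries was left out. The difference of 1.80 for Ighg2c (SE 0.62) missed the threshold at an adjusted p of 0.0526, although the 4 and 4 libraries did not overlap, and limma voom called it (adjusted p = 0.00873). Igkc differed by 4.05 (SE 1.69, adjusted p = 0.113), and by −0.01 without old uninjured library 9, which alone held 393 of the group's 408 Igkc counts. Erythroid markers, measured as a sign of blood in the tissue, summed to 57.9 to 137 CPM in young and 67.5 to 513 CPM in old uninjured libraries. None of the 6 tested was called, and each marker had a count in at least 1 of the 32 libraries. T cell markers summed to 0.464 to 1.06 CPM in young and 1.72 to 4.12 CPM in old uninjured libraries. Of these, 1 of 12 tested genes was called higher, with a median difference of 2.06 against 0.09 over all genes. Each T cell marker also had a count in at least 1 of the 32 libraries. The part of these markers in the result was not tested.

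At day 7 after injury Ighm and Ighg2c fell at both ages, and the other 3 tested heavy chain genes, Ighd, Igha and Ighg2b, were not called. In young muscle 2 of 6 tested genes were called lower, beside 27.5% of all genes: Ighm fell by 1.86 on the log2 scale (SE 0.38, edgeR adjusted p = 0.000118) and Ighg2c fell by 3.98 (SE 0.76, adjusted p = 4.57e-05). In old vehicle muscle the same 2 genes were called lower, beside 29.8% of all genes: Ighm fell by 2.38 (SE 0.38, adjusted p = 3.88e-06) and Ighg2c fell by 4.38 (SE 0.70, adjusted p = 3.37e-06). With library size alone in place of TMM factors, which moves the median gene by 0.88 in young and 1.009 in old muscle, Ighm still fell by 0.95 in young muscle (adjusted p = 0.0202) and by 1.42 in old muscle (adjusted p = 0.000789). The difference between the ages in the day 7 change was −0.53 for Ighm (SE 0.52, adjusted p = 0.582) and −0.40 for Ighg2c (SE 1.06, adjusted p = 0.865), and none of the 6 genes was called there, beside 7.7% of all genes (0 members at an unadjusted p under 0.05).

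Other genes moved the opposite way in the same libraries. Of a list of 24 B cell genes 14 were tested. Of these, 13 were called higher at day 7 in young and 13 in old muscle, beside 33.3% and 34.4% of all genes. The list's summed level went from 11.4 to 14.3 CPM in young uninjured libraries to 62.5 to 96.6 CPM at day 7, and from 12.6 to 17.7 CPM to 100.3 to 144 CPM in old muscle. The median log2 change of the tested genes was 3.49 in young and 3.44 in old muscle, against 0.17 and 0.14 over all genes. The genes with the smallest p in old muscle were Ebf1, which is also made in adipocyte precursors (6.70 to 30.3 CPM, log2 change 2.18), Pou2f2 (0.546 to 16.6 CPM, 4.77), Cd72 (0.362 to 14.4 CPM, 5.21) and Cd37 (1.31 to 16.4 CPM, 3.55), and several of these are known from myeloid cells as well. Cd79b, a signalling subunit of the receptor, rose from 0.226 to 0.998 CPM in young muscle (2.12, SE 0.70, edgeR adjusted p = 0.00972) and from 0.322 to 1.43 CPM in old muscle (2.16, SE 0.64, adjusted p = 0.00409). Cd79a, the other subunit, stood at 0.0580 and 0.131 CPM in young and at 0.217 and 0.399 CPM in old muscle. Ms4a1 went from 0.0387 to 0 CPM in young and from 0.174 to 0.258 CPM in old muscle. Of a list of 20 plasma cell genes 18 were tested, and 11 were called higher and 3 lower at each age. Their median log2 change was 1.13 in young and 1.16 in old muscle. The list's mean summed level was 433 CPM in young uninjured and 328 CPM in young day 7 muscle, and 359 and 372 CPM in old muscle.

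Macrophage markers rose in 10 of 10 tested genes at both ages, from a summed 15.6 to 117 CPM in old uninjured libraries to 759 to 1625 CPM in old vehicle libraries at day 7. T cell markers rose in 9 of 12 at both ages, with a summed 13.2 to 42.7 CPM in old vehicle libraries at day 7. Of all genes, 33.3% were called higher in young and 34.4% in old muscle. Fast fibre markers fell in 6 of 10 in young and 8 of 10 in old muscle, and erythroid markers in 3 of 6 and 6 of 6. Of all genes, 27.5% and 29.8% were called lower. Each marker of these 4 lists had a count in at least 1 of the 32 libraries. Their part in the change of Ighm and Ighg2c was not tested. Receptors for antibodies rose as well. Of 8 tested Fc receptor and transport genes, 7 were called higher in young and 8 in old muscle, beside 33.3% and 34.4% of all genes. Among them Fcgr2b, the inhibitory IgG receptor, was at 4.07 CPM in old uninjured and 78.2 CPM in day 7 muscle (log2 change 4.24, edgeR adjusted p = 2.03e-09), and Fcgr1, the high-affinity IgG receptor, at 0.660 and 29.9 CPM (5.39, adjusted p = 1.09e-09).

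At day 35 the heavy chain genes Ighm and Ighg2c were still lower in old vehicle muscle than in old uninjured muscle. There 2 of 6 tested genes were called lower, beside 2.47% of all genes. Ighm fell by 2.49 on the log2 scale (SE 0.38, edgeR adjusted p = 0.000159) and Ighg2c fell by 2.58 (SE 0.64, adjusted p = 0.0135). The Ighg2c call was lost without old uninjured library 8 (adjusted p = 0.0554) or old vehicle day 35 library 6 (0.0541) or 8 (0.0530). In young muscle 1 gene was called lower, beside 8.66% of all genes: Ighg2c fell by 3.74 (SE 0.78, adjusted p = 0.00145). The Ighm difference in young muscle was −0.95 (SE 0.37, adjusted p = 0.0799), and it was called without young day 35 library 3 (−1.24, adjusted p = 0.0383) and by DESeq2 (−1.01, adjusted p = 0.0298). The day 35 change of Ighm differed between the ages by −1.54 (SE 0.52), with an unadjusted p of 0.00615 and an adjusted p of 0.347. In that difference edgeR called 0 genes of all, with 1690 at an unadjusted p under 0.05 (1 of the 6 immunoglobulin genes), and DESeq2 called 36 and limma voom 1.

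Old and young vehicle muscle were also compared after injury. At day 7 none of the 6 genes was called, beside 2.43% of all genes, and 0 of them had an unadjusted p under 0.05; the Ighm difference was 0.75 (SE 0.37, edgeR adjusted p = 0.271). At day 35, 1 gene was called higher in old muscle, beside 1.72% of all genes: Ighg2c, by 2.96 (SE 0.78, adjusted p = 0.0278), with overlapping groups. That call was lost with limma voom (adjusted p = 0.178), without a filter on low counts (0.0856), and without young day 35 library 1, 2 or 4 or old vehicle day 35 library 7 or 9 (0.0532 to 0.135).

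The light chain gene Igkc had high values in single libraries of several groups and in most old libraries at day 35. Its level was 0.618, 0.445, 0 and 0 CPM in young uninjured libraries, and 0.305, 0.438, 0 and 17.8 CPM in old uninjured libraries. It was 0.395, 0.805, 0.0449 and 0.489 CPM in young muscle at day 7 and 1.55, 0.319, 8.80 and 0.157 CPM at day 35. In old vehicle muscle it was 0.322, 0.365, 1.88 and 0 CPM at day 7 and 3.49, 15.1, 1.27 and 23.6 CPM at day 35. With BI01 it was 0.561, 19.97, 1.501 and 3.17 CPM at day 7 and 5.18, 7.99, 4.35 and 13.1 CPM at day 35. All 4 old libraries with BI01 at day 35 exceeded 4 CPM, whereas in each of the other groups at least 1 library was below 2 CPM.

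Igha, the alpha heavy chain gene of IgA, was high mainly in old muscle at day 35. In old vehicle muscle it was 0.0966, 0.0730, 0.307 and 0 CPM at day 7 and 5.90, 4.54, 0.0703 and 9.55 CPM at day 35. With BI01 it was 0.973, 0.0556, 0.0357 and 1.32 CPM at day 7 and 5.54, 9.11, 4.29 and 6.17 CPM at day 35. Its highest level in the other 4 groups was 2.52 CPM, in young day 35 library 3. In that age and stage the heavy chain make-up shifted with it in most libraries: Ighm took a median of 61.1% of the heavy constant counts in old BI01 muscle at day 35 and 76.3% in old vehicle muscle at day 35, against medians of 89.6% to 96.5% in the other 6 groups, and Igha took 19.7% to 46.7% in the 4 BI01 libraries at day 35. Old vehicle day 35 library 8 did not show the shift, with 92.5% Ighm and 0.243% Igha. Single libraries of the other 6 groups had 85.5% to 98.0% Ighm.

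Jchain, which links IgA and IgM units into polymers, is no immunoglobulin gene by annotation but showed a similar pattern. In old vehicle muscle it was 0.0322, 0.292, 0.394 and 0 CPM at day 7 and 1.02, 5.09, 0.633 and 5.83 CPM at day 35, and with BI01 it was 0.337, 0.779, 0.214 and 0.682 CPM at day 7 and 2.30, 2.91, 1.41 and 4.95 CPM at day 35. In both pairs of groups every day 35 library lay above every day 7 library.

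**Figure D3:**
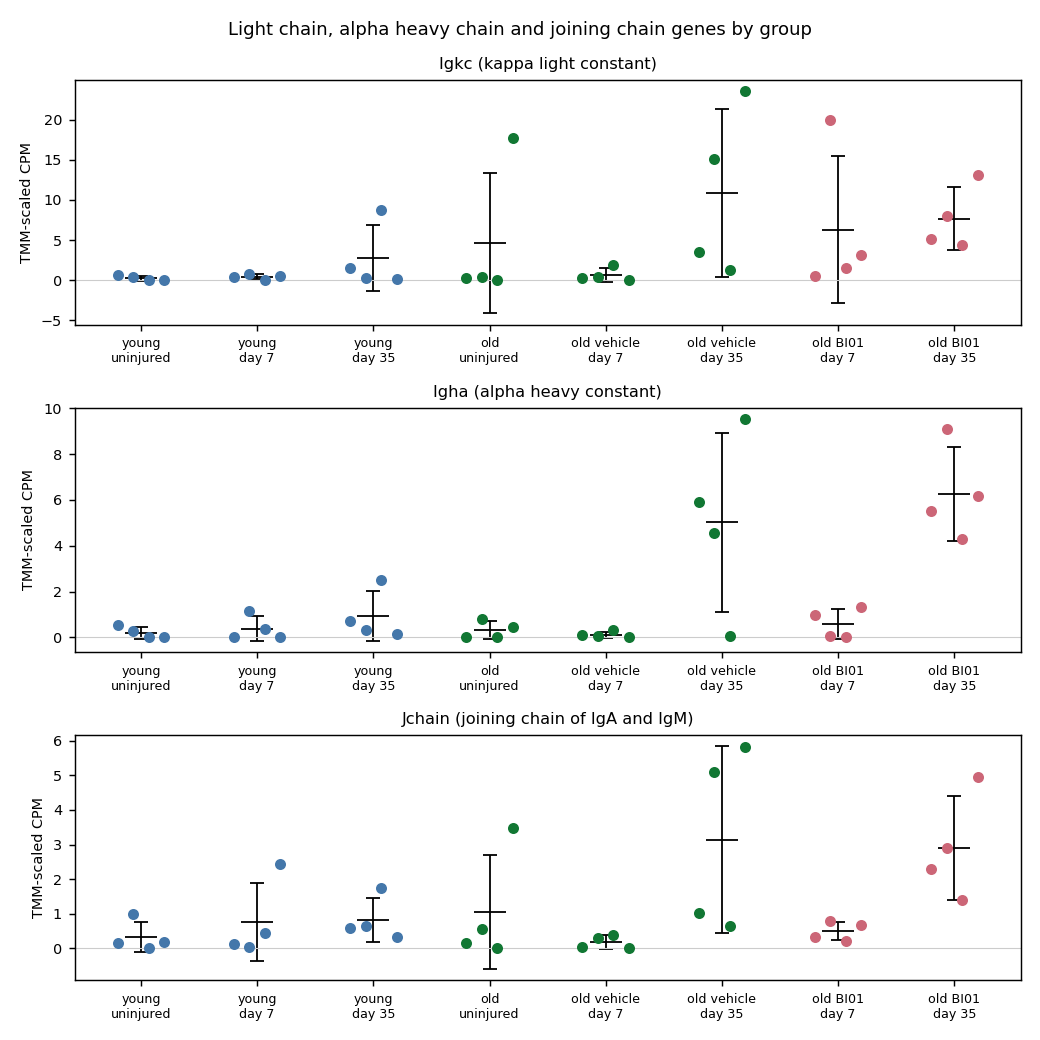
TMM-scaled CPM (linear axes) of Igkc, Igha and Jchain in each library, by group, with points as libraries (blue young, green old without BI01, red old with BI01) and marks and bars as the mean ± SD of 4 libraries. Igha lies above 4 CPM in 7 of the 8 old day 35 libraries, and Igkc also shows single high libraries at 17.8 CPM (old uninjured) and 19.97 CPM (old BI01 day 7).

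Between day 7 and day 35, old vehicle muscle had 3 of 6 tested genes called higher, beside 27.5% of all genes. Igha rose by 5.33 on the log2 scale (SE 1.30, edgeR adjusted p = 0.000936), Igkc by 4.08 (SE 1.44, adjusted p = 0.0170) and Ighg2c by 1.80 (SE 0.67, adjusted p = 0.0228). With only these 8 libraries in the fit, Igha did not pass the filter on low counts and was not tested. The Igkc call was lost without day 7 library 7 (adjusted p = 0.0501) or day 35 library 9 (0.0562). The Ighg2c call was lost without day 7 library 9 (0.0654) or day 35 library 9 (0.164), with limma voom (0.109), without a filter (0.0611) and with library size alone (0.273). Jchain rose by 4.09 (SE 1.16, adjusted p = 0.00338), and Ighm did not pass the test (−0.10, SE 0.37, adjusted p = 0.824). Most of the plasma cell list that holds Jchain went the other way. Of its 18 tested genes 3 were called higher and 11 lower (median −1.07), beside 4713 and 5372 of all 17121 genes. Of the 14 tested B cell genes 0 were called higher and 12 lower. Erythroid markers were called higher in 6 of 6 tested genes, and their part in the result was not tested.

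In BI01 muscle the same step had Igha higher by 3.41 (SE 1.11, edgeR adjusted p = 0.0109) beside 26.2% of all genes called higher, and Ighm lower by 1.23, a change of −1.23 (SE 0.38, adjusted p = 0.00702), beside 29.4% called lower. Jchain rose by 2.5 (SE 1.04, adjusted p = 0.0424) with TMM factors and by 1.60 with library size alone (adjusted p = 0.156); the call was also lost without a filter (0.107) and in most fits that left out 1 library (lowest and highest change 2.11 and 2.80). Of the 18 tested plasma cell genes 3 were called higher and 10 lower with BI01, and of the 14 tested B cell genes 0 and 12. In young muscle Ighm was called higher at day 35, beside 26% of all genes (0.91, SE 0.37, adjusted p = 0.0393). That call was lost with library size alone (0.23, adjusted p = 0.596), with limma voom (0.0725), without a filter (0.0859) and without day 7 library 5, 6 or 7 or day 35 library 1, 3 or 4 (0.0523 to 0.183).

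Compared with uninjured muscle of the same age, old vehicle muscle at day 35 had Igha at 5.02 ± 3.92 CPM against 0.312 ± 0.387 CPM, a difference of 3.79 (SE 1.18) at an edgeR adjusted p of 0.0548, and it was called without old vehicle day 35 library 8 (adjusted p = 0.0289). The comparison for Igkc rested on old uninjured library 9: the difference was 1.19 (SE 1.24, adjusted p = 0.713) with it and 5.25 without it. The B cell list had 1 of 14 genes called in that comparison (Ebf1, higher by 0.86, adjusted p = 0.0115), and of the 18 tested plasma cell genes Prdm1, the regulator of plasma cell identity, was called higher, beside 3.17% of all genes (0.942 to 2.45 CPM, 1.37, adjusted p = 0.00883) and Ell2, an elongation factor, lower (47.2 to 27.2 CPM, −0.80, adjusted p = 0.00126). Mzb1, a chaperone of antibody assembly, was at 0.60 ± 0.249 CPM in uninjured and 1.10 ± 0.634 CPM in day 35 muscle (0.84, SE 0.44, adjusted p = 0.345). Erythroid markers summed to 136 to 1060 CPM in the day 35 libraries, with 0 of 6 called, and their part in the result was not tested.

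BI01 and vehicle were compared in old muscle at each day. At day 7 and at day 35 edgeR called 0 of the 6 genes and 0% of all genes, with 1126 and 530 genes at an unadjusted p under 0.05. DESeq2 called 1 and 12 genes and limma voom 0 and 0. At day 35 all 4 BI01 libraries had less Ighm (4.96 to 20.8 CPM) than all 4 vehicle libraries (24.4 to 26.7 CPM). The difference was −0.94, with a 95% interval from −1.68 to −0.20, an unadjusted p of 0.0187 and an adjusted p of 1. Igkc differed by −0.50 (interval −2.91 to 1.90), Ighg2c by −0.83 (−2.14 to 0.47) and Igha by 0.32 (−1.63 to 2.28) at day 35, so the data do not exclude changes of several-fold in either direction for Igkc and Igha. At day 7 the Ighm difference was 0.18 (interval −0.53 to 0.89), and that of Igkc was 3.31 (0.57 to 6.06, adjusted p = 0.741), or 1.45 without BI01 library 2. The change in the BI01 difference between the days was −1.12 for Ighm (SE 0.52) and −3.81 for Igkc (SE 1.85), with an adjusted p of 0.921 for both. In that comparison edgeR called 0% of all genes, with 825 at an unadjusted p under 0.05 (2 of the 6 immunoglobulin genes), and DESeq2 and limma voom called 0.

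The ratio of heavy to light chain transcripts varied over a wide range. Ighm counts exceeded all light chain constant counts together in 31 of 32 libraries, although every antibody contains both chains in equal number. In old uninjured muscle there were 8.63 to 1862 Ighm counts per light constant count, in old vehicle muscle at day 35 1.02 to 18.1, and in BI01 muscle at day 35 0.896 to 2.69. In 3 libraries (2 young uninjured and 1 old vehicle at day 7) no light constant count was found beside 454, 844 and 622 Ighm counts. A count of 0 allows up to 3 counts, and such limits cover counting error only. Per kilobase the order could turn: in old vehicle muscle at day 35 the level of Igkc was 20.4 CPM and that of Ighm 13.4 CPM, while in old uninjured muscle these levels were 8.69 and 75.2 CPM.

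**Figure D4:**
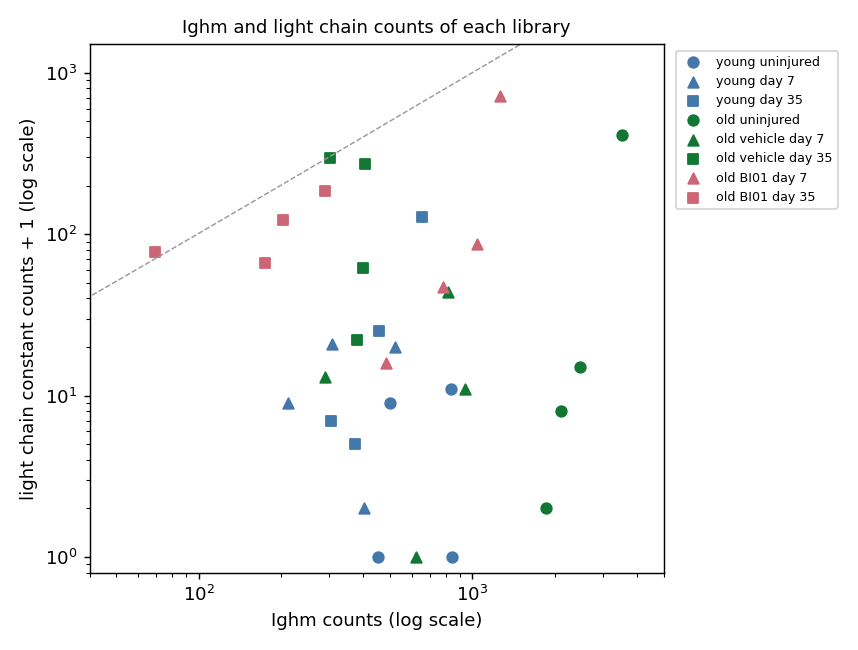
Light chain constant counts plus 1 (Igkc, Iglc1, Iglc2 and Iglc3 summed) against Ighm counts in each of 32 libraries, both axes logarithmic, with the colour giving age and BI01 and the shape giving the stage. The dashed line marks equal counts, and 31 of 32 libraries lie below it.

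Across the 32 libraries the genes fell apart in their ranks, given as a description of libraries that share groups, depth and scaling. Spearman's rho was 0.80 between Igkc and Jchain, 0.71 between Igkc and Igha, 0.69 between Igha and Jchain and −0.18 between Ighm and Igkc. Within groups the rank correlation was 0.68 for Igkc and Jchain. For Ighm and Ighg2c rho was 0.55 over all libraries and 0.03 within groups. The tested genes outside the immunoglobulin class whose levels ranked most like the summed constant genes were Syngr1 (rho 0.75), Zbtb7b (0.73), Srcin1 (0.72), Gm9484 (0.71), Rnf187 (0.71), Zbed4 (0.70), Ostn (0.70), 1700001O22Rik (0.69), Mrgprh (0.69) and Atp13a5 (0.69), none of them from the plasma cell or B cell lists. Single genes were ranked after the values were seen: Jchain headed the list for Igkc, Jchain (0.69) and Mzb1 (0.68) were at ranks 3 and 4 for Igha, C2cd4c (0.73) headed that for Ighm and Phf20 (0.84) that for Ighg2c.

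The variable genes had few counts, and single libraries held most of them. Of 23 variable genes, 16 had over 50% of their counts in 1 library and 4 had counts in 1 library only, and none was found in more than 7 libraries. Igkv3-7 had 254 counts, 250 of them in old uninjured library 9, and all 52 counts of Ighv3-1 came from that library as well. It is the library with 17.8 CPM of Igkc and 3.48 CPM of Jchain, while its Ighm level (159 CPM) lay within the range of its group. In BI01 day 7 library 2, with 19.97 CPM of Igkc, Igkv3-2 had 54 of its 80 counts, and Ighv1-77 (18 counts) and Igkv4-68 (13 counts) were found nowhere else. In old vehicle day 35 library 9, with 23.6 CPM of Igkc, Igkv1-110 had 27 of its 36 counts.

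Young day 35 library 3, with 8.80 CPM of Igkc, showed another make-up: its 55 counts were spread over 12 of the 23 variable genes, led by Igkv6-17 with 17 counts. Over all variable genes of the table it had 77 counts in 21 genes. Iglv1, the lambda variable gene, had 23 counts in each of old vehicle day 7 library 8 and old vehicle day 35 library 7. Igkv6-23 had 19 of its 28 counts in young day 7 library 4, Ighv1-53 was spread over 6 libraries with at most 14 counts, and Ighv3-6 had 12 counts in each of 2 BI01 libraries (day 7 library 4 and day 35 library 9). The 23 genes together had 5 counts in young uninjured muscle and 311 in old uninjured muscle, 309 of these in library 9, and 6 libraries had none. In the table as a whole, 98 variable genes had a count, 1036 counts in all. No variable gene passed the filter; without it Igkv1-110 was called higher at day 35 than day 7 in old vehicle muscle (edgeR adjusted p = 0.00954), Ighv5-17 likewise with BI01 (0.0437), Igkv6-17 in young muscle (0.0378), and Ighv3-1 lower in old vehicle day 7 than in old uninjured muscle (0.0418), each resting on the libraries named for it or, for Ighv5-17, on 9 counts in BI01 day 35 library 9.

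**Figure D5:**
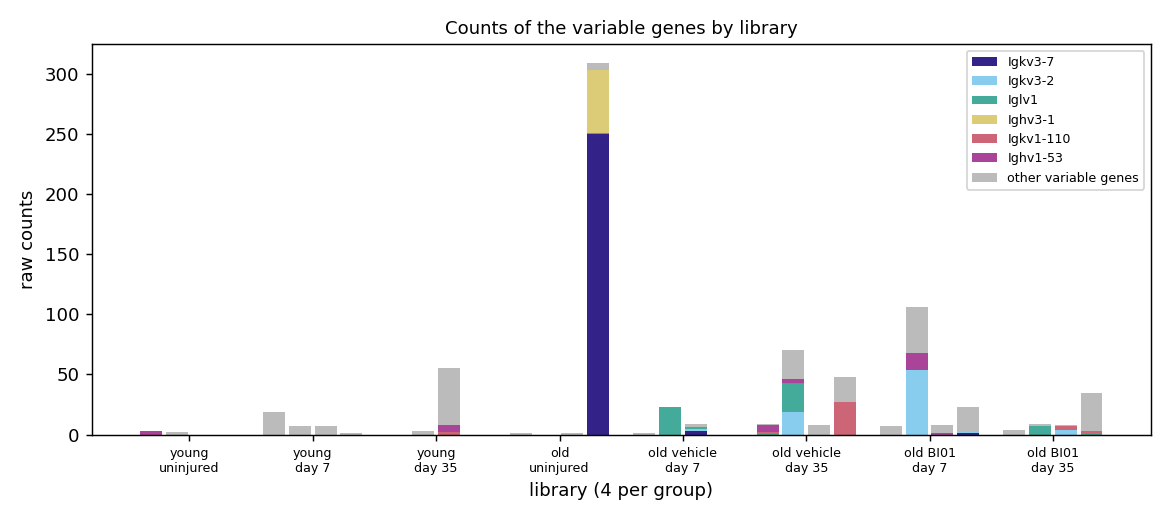
Raw counts of the 23 variable genes in each of 32 libraries, stacked by gene (the 6 most abundant in colours, the others in grey; linear axis from 0). Old uninjured library 9 reaches 309 counts, 250 of them Igkv3-7 and 52 Ighv3-1, and BI01 day 7 library 2 reaches 106.

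The joining segments printed above were counted almost only at day 7. They had 16 counts in young, 48 in old vehicle and 36 in old BI01 muscle at day 7, in 3, 4 and 3 of 4 libraries. They had 0 counts in young uninjured muscle, 1 in old uninjured muscle, 2 in young muscle at day 35, 0 in old vehicle muscle at day 35 and 4 in BI01 muscle at day 35. Ighj4 was the most abundant of them, with 43 counts, 11 in each of old vehicle day 7 libraries 8 and 10. None passed the filter; without it Ighj4 was called higher in old vehicle muscle at day 7 than in uninjured muscle (5.19 on the log2 scale, SE 2.01, edgeR adjusted p = 0.0404). In a rearranged heavy chain transcript, a joining segment is part of the unit that is spliced to the constant region. The 4 libraries with the most joining counts held 21, 17, 14 and 12 of them (old vehicle day 7 library 10, BI01 day 7 libraries 4 and 3, and old vehicle day 7 library 9). Beside these stood 0, 23, 8 and 9 counts of the 23 variable genes described here, and 0, 43, 24 and 18 counts of all variable genes of the table. Of 8 genes of recombination and of precursor B cells, Rag1 and Igll1 were at 0 in all libraries. The 8 genes summed to 0.184 to 1.51 CPM in young uninjured, 3.42 to 10.1 CPM in young day 7, 0.534 to 1.55 CPM in old uninjured and 5.21 to 16.5 CPM in old vehicle day 7 libraries. Il7r, a cytokine receptor subunit that T cells carry as well, was the 1 gene of them tested, and it was called higher at day 7 in young (3.74, SE 0.78, edgeR adjusted p = 0.000139) and old muscle (4.06, SE 0.73, adjusted p = 1.84e-05).

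The remaining constant genes were scarce. Ighd, which is spliced from the same transcript as Ighm in naive B cells, had group means between 0.224 ± 0.0877 CPM (young day 35) and 0.731 ± 0.333 CPM (old vehicle day 7), and it was called in none of the 12 comparisons of 2 groups. Ighg2b had 0 counts in all 8 uninjured libraries and 197 counts in 11 injured ones, with 5.99 CPM in old vehicle day 35 library 9, and with TMM factors and all libraries it was called in none of them either. Its nearest miss was old vehicle day 7 against uninjured muscle (0 to 0.566 CPM, edgeR adjusted p = 0.0501), where it was called higher with library size alone and without old vehicle day 7 library 7 or 8. Iglc2, Iglc3 and Iglc1 were found in 14, 10 and 7 libraries with at most 13 counts in a library. None passed the filter. Without it Iglc1 was called higher at day 35 than day 7 in old vehicle muscle (edgeR adjusted p = 0.0419) and with BI01 (0.0210). These calls rest mainly on 10 counts in vehicle day 35 library 7 and 13 in BI01 day 35 library 7. Iglv1, Iglc1 and Iglc3 overlap an antisense gene of 5 counts (2010309G21Rik), and the sources used here do not give the strandedness of the counting, so reads of these pairs cannot be told apart. Igkc overlaps a noncoding gene of 7 counts on its own strand (Gm30211).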

How the data were processed

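Per the labels' protocols, RNA came from a miRNeasy column kit, and a service company (Novogene) made and sequenced the mRNA libraries. Per the submitters' processing notes, HISAT2 was the aligner and mm10 the genome; no source used here gives the counting tool or the annotation release. The authors deposited whole-number counts per gene and library, and all 32 columns were used. Columns name a group and a number that is not the replicate number of the sample titles, so they were matched to groups only. Within groups, 48 pairs of libraries differed far beyond sampling noise (chi-square per degree of freedom 12.5 to 264).

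Immunoglobulin genes were taken by biotype and a summed count of at least 10. Counts were scaled by TMM in edgeR 4.0.16 (R 4.3.3), filtered with filterByExpr and fitted with a robust quasi-likelihood model with 1 mean per group; 15 contrasts were tested over 17121 genes with Benjamini-Hochberg adjustment, and a call is an adjusted p under 0.05. The script was tested on simulated data. Alternatives were library size alone, no filter, a filter of 1 CPM in 4 libraries, limma voom 3.58.1, DESeq2 1.42.0, only the groups compared, leaving out each library, and, added after the data were seen, the column number as a block. Named were all constant genes, the most abundant variable genes, called variable genes, up to 4 called genes of each companion list, Jchain, Mzb1 and Ms4a1, and the 10 genes most alike in rank (1 further gene of the rule is not reported here); further genes were named after their values were seen. The members and lists were chosen with earlier results of these data known.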

Additional observations from a re-analysis of the deposited data

Results flagged for a closer look

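In 120 groups of 4 libraries, 14 had a highest library whose gap to the next exceeded Dixon's 95% critical share of the group's range. Chance flags about 1 in 20 tested groups if the values are normally distributed, which was not checked for these sparse levels. The quantities overlap, since Igkc makes up most of the light constant sum. Old uninjured library 9 stood apart in 5 of them, with 17.8 CPM of Igkc, 18.4 CPM of summed light constant genes, 0.588 CPM of Iglc2, 13.96 CPM of summed variable genes and 3.48 CPM of Jchain. Young day 35 library 3 stood apart with 8.80 CPM of Igkc, 9.16 CPM of light constant genes and 3.97 CPM of variable genes. BI01 day 7 library 2 had 19.97 CPM of Igkc, which is also its light constant sum of 19.97 CPM. Single quantities stood apart for Ighg2b in old vehicle day 35 library 9 (5.99 CPM), Iglc1 in old vehicle day 35 library 7 (0.614 CPM) and in BI01 day 35 library 7 (0.970 CPM), and Jchain in young day 7 library 7 (2.44 CPM). What sets these libraries apart was not tested.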

How the results depend on the processing

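Counts of immunoglobulin genes called, in edgeR unless another tool is named, changed by over 1.5 times in these cases. For old against young uninjured muscle, 1 gene was called, and 2 with library size alone, with a filter of 1 CPM, with limma voom or with only these groups, 3 with DESeq2 and 0 without a filter. Without a filter 4 were called in old vehicle day 7 against uninjured and 4 in BI01 day 35 against day 7 (2 each before). DESeq2 called 2 in young day 35 against uninjured (1 before). For old against young at day 35, 0 were called without a filter, with limma voom or with only these groups, and for young day 35 against day 7, 0 with library size alone or limma voom (1 before in each). Leaving out 1 library gave 0 to 1 for age in uninjured muscle, 1 to 2 for young and for old day 35 against uninjured, 2 to 3 for old day 7, 0 to 1 for age at day 35, 0 to 1 for young and 1 to 3 for old day 35 against day 7.

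The summed level without Ighm was 5.29 CPM in young uninjured muscle, 2.32 and 5.74 at day 7 and day 35, 24.7 in old uninjured muscle, 3.64 and 23.6 in old vehicle muscle at day 7 and day 35, and 10.02 and 17.6 with BI01 at day 7 and day 35. With library size alone the summed level of all 37 genes was 24.1 CPM in young, 47.9 in old vehicle and 63.6 in BI01 muscle at day 7, where TMM factors are largest. With TMM factors and 1 library left out, the level of all 37 genes was 57.3 to 70.4 CPM (young uninjured), 16.8 to 19.7 (young day 7), 26.6 to 42.5 (young day 35), 154 to 184 (old uninjured), 27.3 to 37.3 (old vehicle day 7), 40.6 to 54.8 (old vehicle day 35), 34.5 to 47.0 (BI01 day 7) and 25.3 to 35.1 (BI01 day 35).

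These differences, none of them called with all libraries and TMM factors, changed sign under some alternatives. With 1 library left out, the Ighm difference between old and young at day 35 lay between −0.48 and 0.0231 (the latter without young day 35 library 3). That between BI01 and vehicle at day 7 lay between −0.11 and 0.36, with −0.11 without vehicle library 7 and −0.0003 without BI01 library 4. For old vehicle day 35 against day 7, Ighm lay between −0.39 and 0.0595 (0.0315 and 0.0595 without day 7 library 8 or 9), at 0.0854 with limma voom, and at −1.01 with library size alone, where it was called lower (adjusted p = 0.0135). At day 35 between BI01 and vehicle, Igkc lay between −0.89 and 0.20 (0.20 without vehicle library 9) and at 0.16 with limma voom, and Igha lay between −0.084 (without vehicle library 8) and 0.84. For age in uninjured muscle Igkc lay between −0.0097 (without old uninjured library 9) and 4.90, and DESeq2 called it (4.06, adjusted p = 0.0368). For old day 7 against uninjured Igkc lay between −4.26 and 1.17 (without old uninjured library 9), and was called lower without old uninjured library 8 or day 7 library 9 (adjusted p = 0.0455 and 0.0354). Where fewer libraries or other genes tested do not account for a change, the cause was not tested.

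The sample titles number libraries 1 to 4 in each group, and no source used here ties these numbers to the numbers in the column names. In 5 comparisons both groups share at least 3 column numbers, and a fit on these groups with that number as a replicate block was added after the data were seen. Over the tested genes, the correlation of same-numbered libraries' deviations from their group means lay between −0.18 and 0.27. In no comparison was it over 0.1 for every number, and in 1 of the 5 (old day 7 against uninjured) each library correlated best with its own number. In young day 35 against uninjured it was 0.25, −0.0397, 0.27 and 0.242 for numbers 1 to 4. The highest correlations with another number were 0.0953, 0.218, 0.218 and 0.0552. Whether libraries with equal numbers share a mouse is not stated, and the main fit treats them as sharing only a number. With the replicate block, 2 immunoglobulin genes were called in young day 35 against uninjured (Ighm and Ighg2c), 3 in old day 35 against uninjured (Igha, Ighg2c and Ighm), 2 in old day 7 against uninjured, 3 in old day 35 against day 7 (Ighg2b, Ighg2c and Igkc, with Ighm at 0.13 and not called) and 0 in BI01 against vehicle at day 35. Depth limits the light, variable and joining genes, most of which have under 60 counts in 32 libraries.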
